A study of Mus musculus with 4 samples.

Results

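CTCF binding was described at the loci of 6 genes that encode transcription factors of the B cell lineage: Ikzf1, Ebf1, Pax5, Bach2, Bcl6 and Irf4. The members are the CTCF regions whose centre lies in a fixed window assigned to each gene in the mouse build mm9. The windows are taken to hold the named genes, which was not checked against an mm9 annotation, so each locus below means its window. There were 43 of them among 29116 regions in all, with 9 in the Ikzf1 window (chr11:11400000-11750000), 9 at Ebf1 (chr11:44200000-45100000), 5 at Pax5 (chr4:44400000-44900000), 11 at Bach2 (chr4:32100000-32900000), 6 at Bcl6 (chr16:23800000-24300000) and 3 at Irf4 (chr13:30700000-31000000). A region is a stretch where peaks of the 4 deposited peak lists overlap by at least 1 bp, and each of the 43 held at most 1 peak per library.

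The libraries came from WEHI-231, an established mouse B cell lymphoma line with a (BALB/c x NZB)F1 background, and CTCF was precipitated from sonicated nuclei with a commercial antibody before sequencing (ChIP-seq). Control cells (Wehi-231-CT) gave 2 libraries, and a line in which TFII-I was stably knocked down (Wehi-231-shTFII-I) gave the other 2; both groups were grown in the same medium. The study's title asks whether TFII-I guides CTCF to promoters. The labels number the replicates but do not state separate cultures, so the p-values below measure only the spread between these libraries, which may be technical. They do not state whether the knockdown line is a clone, and the degree of the knockdown was not analysed here.

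CTCF is a zinc finger protein that holds the ends of chromatin loops and insulates genes from their neighbours' enhancers, and TFII-I, encoded by Gtf2i, is a multifunctional transcription factor. The 6 genes act at successive steps of B cell life. Ikaros, the product of Ikzf1, opens the lymphoid programme, Ebf1 specifies the B lineage and Pax5 commits cells to it. Bach2 represses plasma cell genes in mature B cells, Bcl6 is the repressor that sustains germinal centre B cells, and Irf4 drives light chain rearrangement and, at high levels, plasma cell differentiation.

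No mm9 sequence was used, so the bases under the peaks are not printed. To show what a CTCF core looks like near these genes, the promoter entries of RefSeq for the build GRCm38.p6 were searched for CCANNAGG or its reverse complement CCTNNTGG, a short form of the CTCF core, where N is any base. All 6 genes had an entry, 9 entries in all, each running from 250 bases before to 50 bases after a start site. A match was present in 3 of the 9, against 21.3% of all 32851 entries, and the matching stretches are given 5′ to 3′ on the strand of the gene with the match in capitals.
Ikzf1, first entry, chr11:11685718-11685777, plus strand: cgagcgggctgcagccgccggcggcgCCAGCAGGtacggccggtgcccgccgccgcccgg
Ebf1, second entry, chr11:44620258-44620277, plus strand: gctcttgagctCCTGATGGg
Bcl6, second entry, chr16:23981309-23981368, minus strand: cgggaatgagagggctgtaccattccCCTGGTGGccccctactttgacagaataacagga
The matches start at position -181 for Ikzf1, 41 for Ebf1 and -59 for Bcl6, counted from 0 at the start site. These coordinates are of another build than the peaks and cannot be set beside them, so a match is a description of letters and not a bound site.

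The control lists held more CTCF peaks at these loci than the knockdown lists. Control replicates 1 and 2 had 34 and 32 peaks with their centre in the windows, a mean of 33 ± 1.41 (SD, n = 2). Knockdown replicates 1 and 2 had 22 and 17, a mean of 19.5 ± 3.54 (SD, n = 2), which is 59.1% of the control mean. The groups did not overlap, but the two-sided exact permutation test gave p = 0.333, the smallest value that 2 libraries against 2 allow. The lists as a whole were shorter too, with 24467 and 23873 control peaks against 19076 and 15309 knockdown peaks. The windows held 0.139% and 0.134% of the control peaks and 0.115% and 0.111% of the knockdown peaks. Limited to the 15309 strongest peaks of every list, the windows held 19 and 21 control peaks and 17 and 17 knockdown peaks. The sources used here give no tag numbers, and lower occupancy and a less deeply sampled library cannot be told apart.

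**Figure D1:**
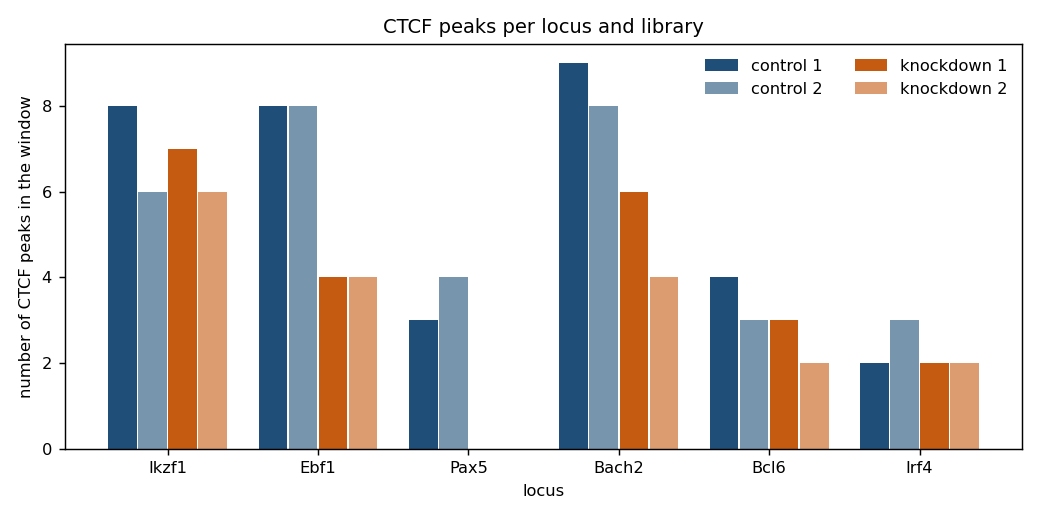
Number of CTCF peaks (vertical axis) in the regions of each locus (horizontal axis), 1 bar per library (dark, replicate 1; light, replicate 2). Both knockdown bars are at 0 for Pax5 and at 4 against 8 for Ebf1, while Ikzf1 has 7 and 6 knockdown peaks against 8 and 6 control peaks.

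The loci differed in how many of their regions had knockdown calls, from 7 of 9 at Ikzf1 to 0 of 5 at Pax5. Of the 43 regions, 16 (37.2%) were called in all 4 libraries, against 40.3% of all regions. No knockdown call was present in 19 (44.2%), against 25.2% of all regions. Among the 26 regions with a call in each control, 7 lacked one in either knockdown library, a share of 26.9% (exact Clopper-Pearson 95% interval 11.6 to 47.8%) beside 14.8% of such regions in the whole genome. These 7 regions, which are termed control-specific, were 3 at Ebf1, 2 at Pax5 and 2 at Bach2. Knockdown-specific regions have calls in each knockdown library and no control call. They numbered 0 of 16 regions with calls in each knockdown library, beside 1.14% in the whole genome. A count of 0 of 16 allows a share of up to about 18.8%, a rough limit taken as 3 of 16 and not an exact interval. The intervals and limits cover counting error over regions, which are not replicates, and no test of the loci against the genome was made.

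The share of control-specific regions at the loci moved with the lists and with single windows. Without the Pax5 window it was 5 of 24 (20.8%), and without the Ebf1 window 4 of 19 (21.1%). With lists of equal length, 2 of 17 regions called in both controls were control-specific (11.8%), against 7.27% of all regions treated so, and the 2 lay at Pax5 and Ebf1. Among peaks with a score of at least 100 it was 3 of 14 (21.4%), against 39.5% of all regions treated so. The loci then stood below the background, and these 3 lay at Ikzf1, Bach2 and Irf4. That cut kept 13969 and 13236 peaks of the control lists but 6804 and 4343 of the knockdown lists. It thus removed knockdown calls more often, at the loci and in the background, and these shares are not comparable with those of the complete lists. Leaving out control replicate 1 or 2, which loosens the definition, gave 12 and 14 control-specific regions.

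All 7 control-specific regions were among the weaker control peaks. For this, all 20780 regions with a call in each control were sorted by mean control score percentile and cut into 10 groups of equal size. In the 5 weaker groups, 7 of 12 member regions were control-specific, against 26.6% of all regions in those groups. In the 5 stronger groups it was 0 of 14, against 3.02%. The weakest group alone held 4 member regions, 3 of them control-specific, where the share among all regions was 48.2%.

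**Figure D2:**
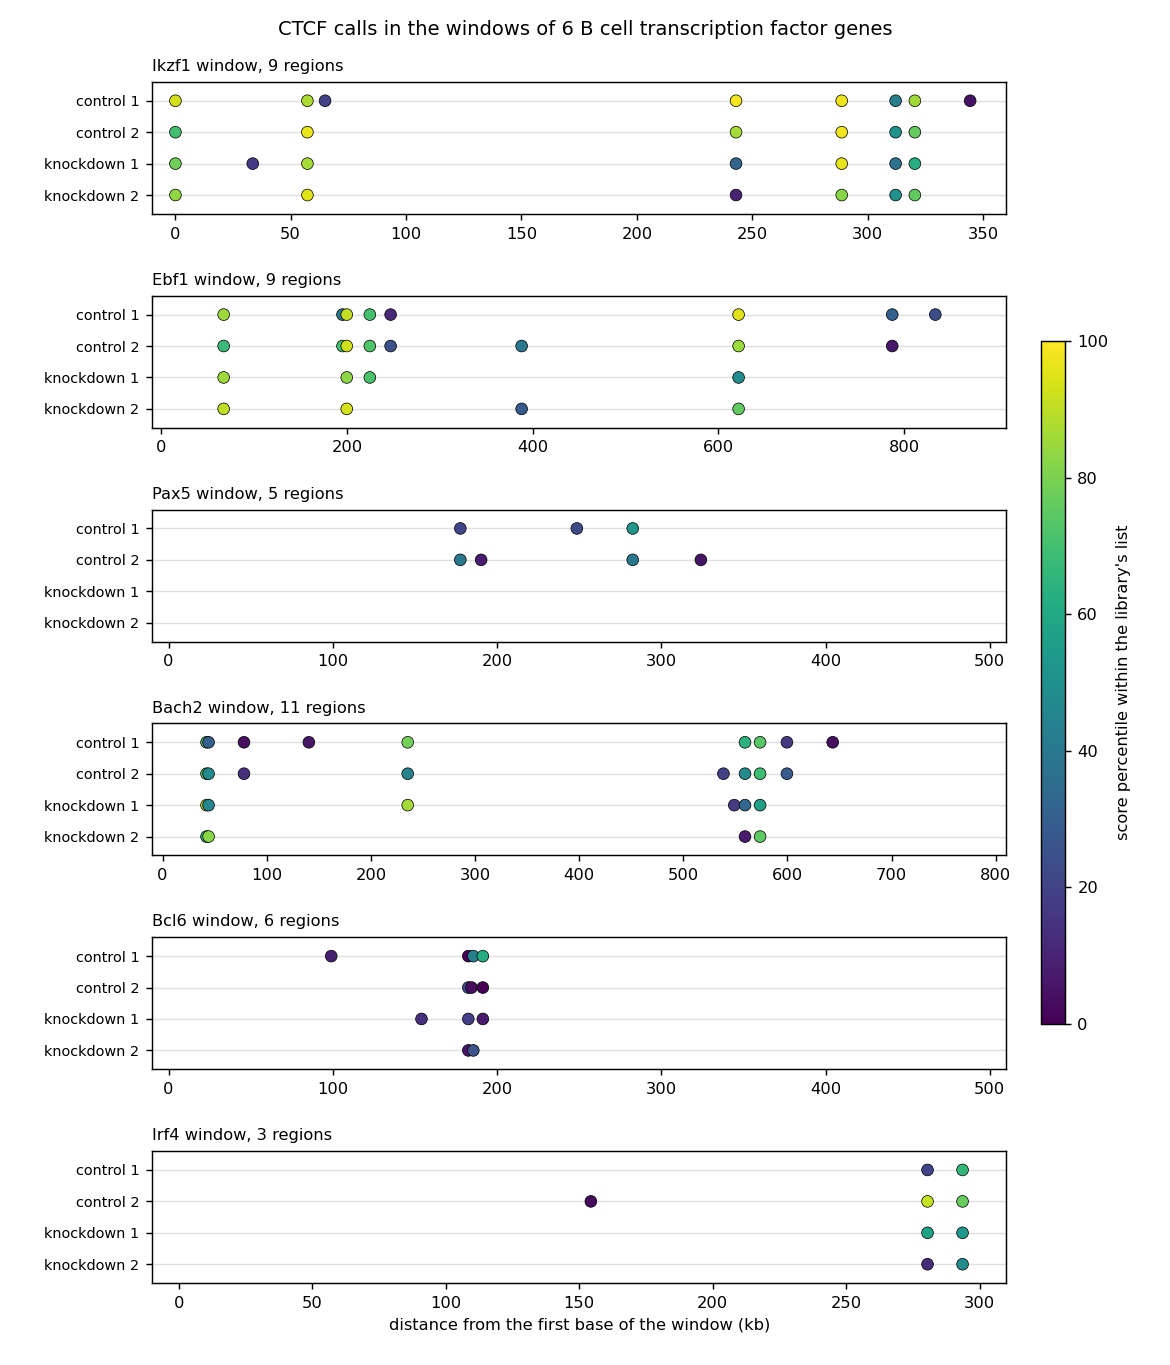
CTCF calls in each window, with distance from the first base of the window in kb on the horizontal axis, 1 row per library, and colour for the score percentile of the peak within its library's list. The Pax5 window has no point in either knockdown row; points closer than a few kb overlap, as in the Bcl6 and Bach2 windows.

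Scores are given as deposited. The lowest score in the lists was 50, and a higher score stands for stronger evidence of a peak. In output of MACS, the caller whose name the peaks carry, such a score is minus 10 times the log10 of a probability, but the sources used here do not state this. Scores of different lists share no common scale, with median scores of 111 and 107 in the control lists against 85.5 and 79.1 in the knockdown lists. Percentiles within each list, where 100 is the highest score, are therefore given beside them.

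At Ikzf1, CTCF regions were the densest of the 6 loci, at 25.7 per Mb of window against 11.3 per Mb over the spans of all chromosomes, and 6 of the 9 were called in every library. All 6 regions called in both controls were also called in both knockdown libraries, as were 11741 of the 20780 such regions in the whole genome. Most of the 6 lay in groups 9 and 10 of the 10 strength groups, the strongest. In these groups 1.11% and 0.241% of all regions were control-specific, so nothing particular to Ikzf1 is read from this count. The region with the highest mean percentile, chr11:11688272-11689229, scored 303 in control replicate 1, 299.8 in control replicate 2, 197 in knockdown replicate 1 and 117 in knockdown replicate 2. It stood at percentiles 97.5 and 97.7 of the control lists against 96.4 and 82.3 of the knockdown lists, near the top of 3 lists and lower in that of knockdown replicate 2. In what follows, scores are given in that order of libraries, the controls before the knockdown libraries.

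One other Ikzf1 region had the largest percentile difference of the 16 members called in every library. The region chr11:11642637-11643289 scored 324 and 187 in the controls, at percentiles 97.9 and 86.6, but 70.7 and 55.2 after knockdown, at percentiles 32.3 and 9.75. Both knockdown libraries lay far below both controls, and the difference of the means was -71.2 percentile points. Of the 11741 regions of the genome called in all 4 libraries, 21 (0.179%), this region included, had a difference at or below that value. The region was picked as the largest difference of 16 members, so this share gives its place and is not a probability. The difference was between -60.0 and -82.5 points when any 1 library was left out. That range follows from the percentiles just given and is not a test of stability. The nearest regions on either side that were called everywhere differed by less: chr11:11456961-11457611 scored 197 and 275 against 139 and 165, a difference of -1.18 points, and chr11:11688272-11689229 stood at -8.21 points.

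The remaining Ikzf1 regions called everywhere had smaller differences. The region chr11:11720178-11720690 scored 191 and 155 against 97.3 and 105.8, with both knockdown percentiles (61.9 and 75.6) under both control percentiles (85.6 and 76.5). For chr11:11711799-11712389 the scores were 99.6 and 109 against 75.3 and 79.3, and the groups overlapped in percentile. The region at the edge of the window, chr11:11399734-11400483, scored 235 and 141 against 119 and 119, also with overlap; its centre lies 0.108 kb inside the window and the next region outside lies 38.1 kb beyond the edge. The last 3 regions were called in a single library each, with scores of 70.1 and 54.0 in control replicate 1 and of 60.1 in knockdown replicate 1, all at or under percentile 19.9 of their lists. A stretch from 11465164 to 11642637, 177 kb long, held no call.

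At Ebf1, every library called 3 of the 9 regions, while 3 of the 7 that each control called had no knockdown call. The highest mean percentile belonged to chr11:44399321-44400029, with scores of 215 and 221 against 129 and 155; it stood between percentiles 83.1 and 93.7 in every list. Next to it, 3938 bp away, lay the control-specific region chr11:44394774-44395382, which scored 94.4 and 141. Of these 2 neighbours the stronger was called in every library and the weaker in the controls alone.

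The other control-specific regions at Ebf1 were weaker. The region chr11:44446680-44447170 scored 60.6 and 74.5, and chr11:44986942-44987510 scored 83.4 and 55.6. The nearest knockdown calls were 22013 bp from the first and 164906 bp from the second, so no shifted knockdown peak lay beside either. Between them, chr11:44821378-44822112 was called everywhere, with scores of 250.4 and 180.3 against 83.3 and 105.5. Both of its knockdown percentiles (47.8 and 75.4) were below both control percentiles (94.96 and 84.9), a difference of -28.3 points. The first region of the window, chr11:44266759-44267412, scored 190.04 and 137 against 135 and 138, and its difference of 11.1 points came with overlapping groups.

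Of the 3 Ebf1 regions not yet named, chr11:44424192-44424913 was called in both controls (149 and 146) and in knockdown replicate 1 (109). A further region was called in control replicate 2 (93.7) and knockdown replicate 2 (65.2), and the last in control replicate 1 alone (73.9). The longest empty stretch of the window ran from 44588330 to 44821378, 233 kb.

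At Pax5, no region had a call in either knockdown library. The window held 3 peaks in control replicate 1 and 4 in control replicate 2, in 5 regions, and none of the 5 was called in all 4 libraries. Both controls called chr4:44577412-44577894, with scores of 71.4 and 94.6, and chr4:44682344-44682891, with scores of 115 and 94.0. These are moderate peaks, between percentiles 21.2 and 52.9 of the control lists. The other 3 were called in a single control: chr4:44590170-44590478 scored 56.7 and chr4:44723924-44724278 scored 54.4 in control replicate 2, and chr4:44648373-44648844 scored 72.7 in control replicate 1.

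The Pax5 regions lay far from any knockdown call, in surroundings with no call in the controls either: no library had one in the first 177 kb or the last 176 kb of the window. The nearest call of knockdown replicate 1 to any of the 5 was 191883 bp away and that of knockdown replicate 2 was 198531 bp away. Nearest outside the window, chr4:44338178-44338835 was called everywhere, with scores of 105 and 106 against 106 and 92.6, and chr4:44915937-44916609 was called in control replicate 2 (56.0) and knockdown replicate 1 (58.4). With lists of equal length the Pax5 window had 2 regions without a knockdown call, and with a score of at least 100 it had 1. Of all regions, 25.2% had no knockdown call, and nothing particular to Pax5 is read from 5 regions of weak or moderate score.

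At Bach2, 4 of 11 regions had a call in every library and another 2 were control-specific. The highest mean percentile was that of chr4:32141899-32142578, with scores of 147 and 147 against 144 and 93.4. Its neighbour chr4:32143961-32144476, 1382 bp away, scored 82.0 and 104 against 81.9 and 117. That neighbour had the highest positive difference of the members, 25.3 percentile points, but its knockdown percentiles (46.1 and 82.1) overlapped the control values (29.7 and 47.9). It is named after its values were seen, since no member met the rule for a rise.

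The Bach2 region with the largest negative difference was chr4:32658936-32659533. It scored 136 and 104 against 71.2 and 53.9, and the difference of -35.8 percentile points separated the groups. The region chr4:32673398-32674013, 13864 bp further on, scored 156 and 139 against 90.9 and 105, with overlap. The control-specific regions were chr4:32177949-32178512, with scores of 53.3 and 62.2, and chr4:32699343-32699620, with scores of 66.4 and 78.6. All 4 scores lie at or under percentile 28.2 of the control lists, and the nearest knockdown calls were 33526 and 25329 bp away.

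Among the other 5 Bach2 regions, chr4:32335110-32335740 was the strongest, scoring 169 in control replicate 1, 100.07 in control replicate 2 and 138 in knockdown replicate 1. It had no call in knockdown replicate 2, whose nearest peak was 190687 bp away. The remaining 4 were each called in a single library, with scores from 53.7 to 68.4. After chr4:32335110-32335740 came the longest gap between neighbouring regions of a window, 303 kb from 32335740 to 32638315.

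At Bcl6, most calls were weak and most regions were clustered. Between 23982219 and 23991595 on chromosome 16 lay 4 of the 6, separated by 1514, 632 and 5295 bp, against a median gap of 28.8 kb between neighbouring regions of the genome. The only Bcl6 region called in every library was chr16:23982219-23982818, with scores of 50.7 and 71.8 against 60.6 and 52.9. All 4 scores lie at or under percentile 22.4 of their lists, and its groups overlapped.

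The other regions of the Bcl6 cluster were called in some libraries only. The region chr16:23991139-23991595 scored 130.6 in control replicate 1, 50.2 in control replicate 2 and 54.3 in knockdown replicate 1. For chr16:23985269-23985843 the calls were in control replicate 1 (101) and knockdown replicate 2 (63.2), and chr16:23984333-23984636 was called in control replicate 2 alone (52.9). The 2 controls differed from each other in which of these 3 regions they called. The last 2 Bcl6 regions lay before the cluster and were called once each, with a score of 58.3 in control replicate 1 and of 58.2 in knockdown replicate 1. No region of the window was control-specific, and 308 kb from the last region to the end of the window held no call.

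At Irf4, every library called 2 of the 3 regions, and none was control-specific. The region chr13:30993341-30993952 had the highest mean percentile, with scores of 139 and 156 against 88.5 and 77.9. Its knockdown percentiles (53.3 and 48.3) were under both control percentiles (65.9 and 76.8), a difference of -20.6 points. The region chr13:30980208-30980843 scored 69.9 and 210.4 against 92.5 and 56.6, so the control replicates alone spanned percentiles 19.7 to 91.2. The third, chr13:30854120-30854664, had a score of 52.0 in control replicate 2 only.

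Over the 16 regions called in all 4 libraries, the place in the lists was lower in the knockdown libraries, as it was for regions called everywhere in the genome. Their mean percentile was 68.7 and 72.0 in the control lists, and 60.1 and 59.5 in those of the knockdown. The group means were 70.4 ± 2.33 and 59.8 ± 0.424 (SD, n = 2 each), a difference of -10.6 points, with a two-sided exact permutation p of 0.333, again the smallest possible. For all 11741 such regions the means were 65.8 ± 0.332 and 57.5 ± 2.87, a difference of -8.29 points. A percentile is relative to the list it is taken from, and the knockdown lists are shorter. Percentiles were also taken among the regions called everywhere alone. All of them together then have no difference between lists by construction, and the difference at the loci was -4.26 points. A single region, the Ikzf1 region chr11:11642637-11643289, carried much of these values: without it the difference was -6.51 points, smaller than that of all regions called everywhere, and 0.28 points when percentiles were taken among the regions called everywhere, no longer lower in the knockdown libraries.

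By region, the mean percentile was lower in the knockdown libraries for 13 of 16 members (81.2%), against 66.5% of all regions called everywhere, with a median difference of -4.55 points against -7.26 points. Both knockdown percentiles were under both control percentiles in 6 of 16 (37.5%), against 28.9% of all: 3 at Ikzf1 and 1 each at Ebf1, Bach2 and Irf4. Both were above in 0 of 16, against 11.1% of all, and 0 of 16 allows a share of up to about 18.8%, again taken as 3 of 16.

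**Figure D3:**
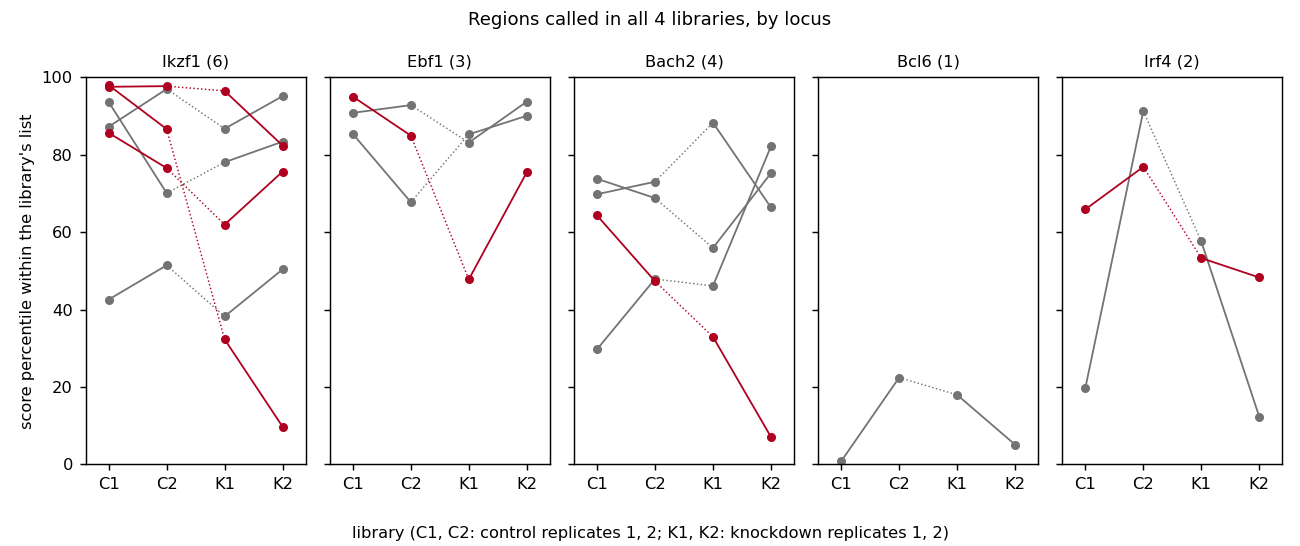
Score percentile within each library's list (vertical axis) for the 16 regions called in all 4 libraries, by locus, with the 4 libraries on the horizontal axis. Each line joins the values of 1 region; red lines are the 6 regions with both knockdown values under both control values, and Pax5 has no such region to show.

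**Figure D4:**
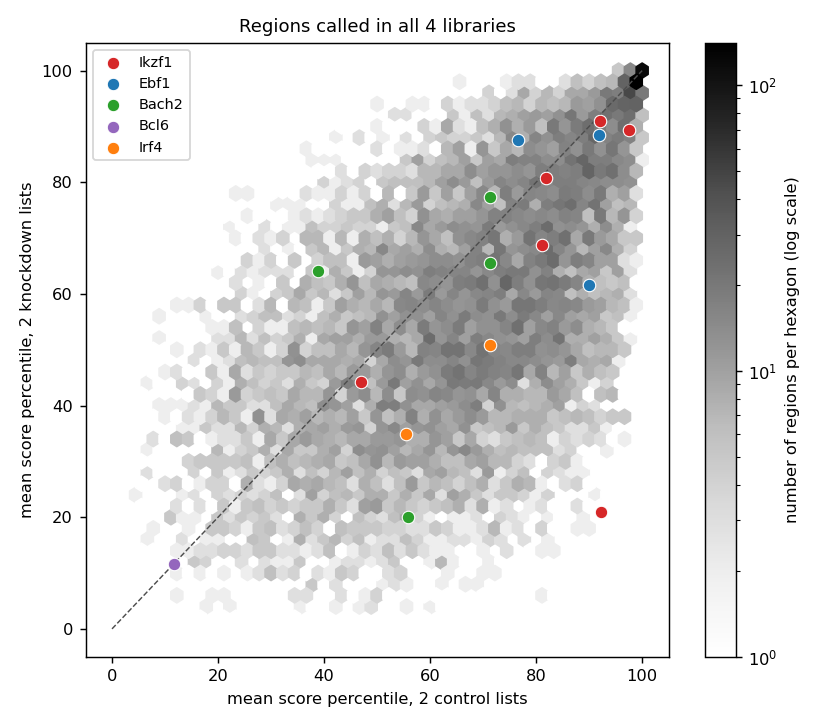
Mean score percentile in the 2 knockdown lists (vertical axis) against that in the 2 control lists (horizontal axis); grey hexagons count all 11741 regions called in all 4 libraries on a log scale, coloured points are the 16 member regions, and the dashed line marks equal values. An Ikzf1 point at 92.3 and 21.0 lies apart from the other members.

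The regions of the loci resembled other CTCF regions in median width, and their spacing can be compared only in part. Their median width was 548 bp (246 to 958 bp), against 572 bp for all regions. The median gap between neighbouring regions within a window was 28.1 kb, against 28.8 kb over all regions. The first value leaves out gaps that cross a window edge and the second does not, so they are not like measures. The windows held 12.8 regions per Mb together, from 10.0 at Pax5, Ebf1 and Irf4 to 25.7 at Ikzf1. In the 16 regions called everywhere, the median peak width was 504 and 554 bp in the control lists against 358.5 and 477.5 bp in the knockdown lists. For all regions called everywhere these widths were 518 and 542 bp against 343 and 455 bp, so knockdown peaks were narrower there too.

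Other protein-coding genes may share these windows. In the GRCm38 gene table the nearest on either side are 4930512M02Rik and Fignl1 for Ikzf1, Rnf145 and Clint1 for Ebf1, Melk and Zcchc7 for Pax5, Map3k7 and Gja10 for Bach2, Rtp2 and Lpp for Bcl6, and Dusp22 and Exoc2 for Irf4. An mm9 annotation was not used here, so the regions were not assigned to promoters, exons or introns of the 6 genes or of these neighbours.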

How the data were processed

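CTCF ChIP-seq peak lists of 4 WEHI-231 libraries were used, 2 control and 2 knockdown. BWA, HOMER and mm9 are named, per the submitters' processing notes, without roles; the peak names carry the word MACS. Each deposited list gives chromosome, start, end and the authors' score per peak, with no tag counts or depth. For the caller, version, settings and input were not given in the sources used here.

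Peaks overlapping by 1 bp were merged over the 4 lists, and regions were kept whose centre lay in the 6 windows. A region counts as called in a library that has a peak in it. Group values are means with SD of 2 libraries, tested by two-sided exact permutation over libraries. Percentiles are ranks of scores within a list.

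The members, the lists and the tests were chosen with earlier results of these data known. By rule, regions are named that have, per locus, the highest mean percentile over 4 libraries, or that are control-specific or knockdown-specific, or that have the largest rise or fall separating the groups. All other regions given by position were chosen after their values were seen, so that each locus is described in full. The peak count per window was planned from each peak's own centre; with region centres knockdown replicate 2 has 18 peaks and not 17, as its edge peak at Ikzf1 is centred outside. Merging was tested on simulated data, copies of a control list with small shifts and some peaks removed. That checks the code and not how well merging matches real lists, which differ more. Versions were python 3.11.15, scipy 1.17.1, numpy 2.4.6, pandas 2.3.3 and matplotlib 3.10.9.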

Additional observations from a re-analysis of the deposited data

How the results depend on the processing

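The difference in peak number at the loci, -13.5 peaks, kept its sign under every alternative run, from -3 with lists of equal length to -16 without knockdown replicate 1. All alternatives but the equal lengths kept the knockdown lists shorter than the control lists, so the kept sign is no test of stability. The percentile difference of -10.6 points lay between -4.26 and -12.2 points with other ranks or with any 1 library left out. Without the Ikzf1 region chr11:11642637-11643289, left out after seeing the data, it was -6.51 points, and with ranks among regions called everywhere it then turned to 0.28 points. In no alternative could the exact test give a p under 0.333. The 16 regions called in all 4 libraries became 5 with a score of at least 100 and 9 with windows narrowed by 50 kb at both ends, both of which use fewer peaks by construction. The 7 control-specific regions became 3 with that score and 2 with lists of equal length, and ranged from 7 to 14 when a library was left out (12 without control replicate 1, 14 without control replicate 2). Knockdown-specific regions numbered 0 throughout, except that leaving out libraries gave 0 to 3, with 3 without knockdown replicate 2. A reciprocal overlap of 50% gave 8 control-specific regions and 11 called in all 4; merging within 500 bp and peak centres within 500 bp left these counts at 7 and 16. With a replicate block, the differences were -13.5 peaks and -10.6 points, both with an exact sign-flip p of 0.5, the smallest possible. Same-numbered libraries did not deviate together (r = 0.0126 across 11741 regions, which are not independent replicates). The count by region centre was added after seeing the data and gave a difference of -13 peaks. Of 108 alternative counts of regions, single loci included, 83 were unchanged or within 1.5 times the count and 25 were not. Many of the 83 are counts of 0 that stayed 0, so the tally is no measure of stability. The lists hold no tag counts, so depth limits every absent call.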
